A study of Mus musculus with 26 samples.

Results

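The genes described here are the mouse enzymes that write and erase histone and DNA methylation, the histone deacetylases and the CHD chromatin remodellers. They were taken from the deposited count table by symbol, as every row starting with Kmt, Kdm, Hdac, Chd or Dnmt and a digit, with Setd and a digit or Setdb, or named Tet1, Tet2 or Tet3, with at least 50 counts over all 26 libraries. Of 35976 rows, 65 matched the symbols and 61 became members. Dnmt3l, with 21 counts over all libraries, fell under the minimum, and Kdm5c, Kdm5d and Kdm6a were left out by the rule. The rule reads symbols and total counts only. Among the 61 members, 3 are antisense or read-through entries (Chd3os, Dnmt3aos and Setdb2-phf11c) and not enzymes of their own.

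Bulk RNA was sequenced from mouse liver tumours and control livers. The Cyp1a2_CA tumours (10 libraries from 9 animal numbers) carried Cyp1a2-CreERT2 with Ctnnb1(ex3)fl/+ and Arid2fl/fl, and the Gls2_CA tumours (9 libraries from 5 animal numbers) carried Gls2-CreERT2 with the same 2 floxed genes. A single Cyp1a2_C tumour library carried Cyp1a2-CreERT2 and Ctnnb1(ex3)fl/+ without the Arid2 allele, and the 6 WT livers came from mice given an adeno-associated virus with Cre. CreERT2 is a Cre recombinase that acts after tamoxifen, here given on postnatal day 28 with 6 to 12 months of follow-up. Cyp1a2 is active in hepatocytes near the central vein and Gls2 in those near the portal vein. Recombination removes exon 3 of Ctnnb1, which stabilises beta-catenin, and disrupts Arid2, a subunit of the PBAF chromatin remodeller. Tumour mice were of mixed C57BL/6J and Swiss Webster strain and WT mice were C57BL/6J, kept for up to 12 months. The WT mice had no tamoxifen day in the labels, so genotype, strain, tamoxifen, virus and tumour tissue cannot be told apart in any comparison with WT. Libraries with the same number in their titles were read as 1 animal and their counts were summed. Nothing in the labels says more of how tumours were sampled.

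Histone methyltransferases put methyl groups on lysines of histone tails, and demethylases of the LSD1 and JmjC types take them off. Methylation of H3K4 marks active promoters and enhancers, that of H3K36 marks transcribed gene bodies, and that of H3K9 and H4K20 is found in silent or compacted chromatin. Histone deacetylases remove acetyl groups and work largely in corepressor complexes, DNA methyltransferases methylate cytosine and TET dioxygenases oxidise it again, and CHD proteins are ATP-driven machines that slide or exchange nucleosomes. In human liver cancer, KMT2C, KMT2D and ARID2 are among the chromatin genes found mutated.

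Total counts per library were 37051941 to 49254470 in Cyp1a2_CA, 36992043 to 42865787 in Gls2_CA, 41038144 in Cyp1a2_C and 13486530 to 16975288 in WT. Arid2 itself was at 31.1 ± 4.05 CPM in Cyp1a2_CA, 36.3 ± 8.46 CPM in Gls2_CA and 67.2 ± 4.33 CPM in WT (SD, n = 9, 5 and 6), and was at 40.8 CPM in the Cyp1a2_C library. CPM (depth-scaled counts) were computed on TMM-scaled library totals, and levels are given per animal unless a library is named. Hepatocyte markers were present throughout but lower in tumours: 7 such genes summed to 11200 to 49800 CPM in Cyp1a2_CA and 4440 to 27900 CPM in Gls2_CA, against 82800 to 104000 CPM in WT. Endothelial markers summed to 169 to 276 CPM in Cyp1a2_CA and 169 to 265 CPM in Gls2_CA, against 313 to 352 CPM in WT, and stellate and fibroblast markers to 142 to 587 and 146 to 206 CPM, against 378 to 466 CPM in WT. In bulk tissue, fewer cells of a type and less RNA per cell cannot be told apart, and the part of these marker shifts in the results below was not tested. Ttn, the giant muscle protein gene, was above 1000 CPM in 4 tumour libraries (8670 to 30200 CPM), and results that rest on those libraries are given with and without them.

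Most of these enzymes were at higher levels in both tumour groups. In Cyp1a2_CA against WT, 44 of the 60 members tested rose and 10 fell, where 38.3% of all 16841 genes tested rose and 32.7% fell. In Gls2_CA against WT, 41 of the 57 members tested rose and 10 fell, where 39.2% of 14976 genes rose and 34% fell. A gene is said to rise or fall where the adjusted p of edgeR's quasi-likelihood test, over all genes, was under 0.05. The median log2 fold change of the members was 1.41 in Cyp1a2_CA and 1.46 in Gls2_CA, against 0.17 and 0.14 for all genes of the same comparisons. In these fits 34 and 33 members rose more than 2-fold, and the share of all genes that did so was not computed. Both comparisons used the same 6 WT livers. Members took up 0.854 to 1.34% of all counts in Cyp1a2_CA libraries and 0.867 to 1.57% in Gls2_CA libraries, against 0.27 to 0.293% in WT libraries, with no overlap. Such a share also depends on the counts of all other genes, the hepatocyte markers among them. It was not computed for other genes of similar length.

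**Figure D1:**
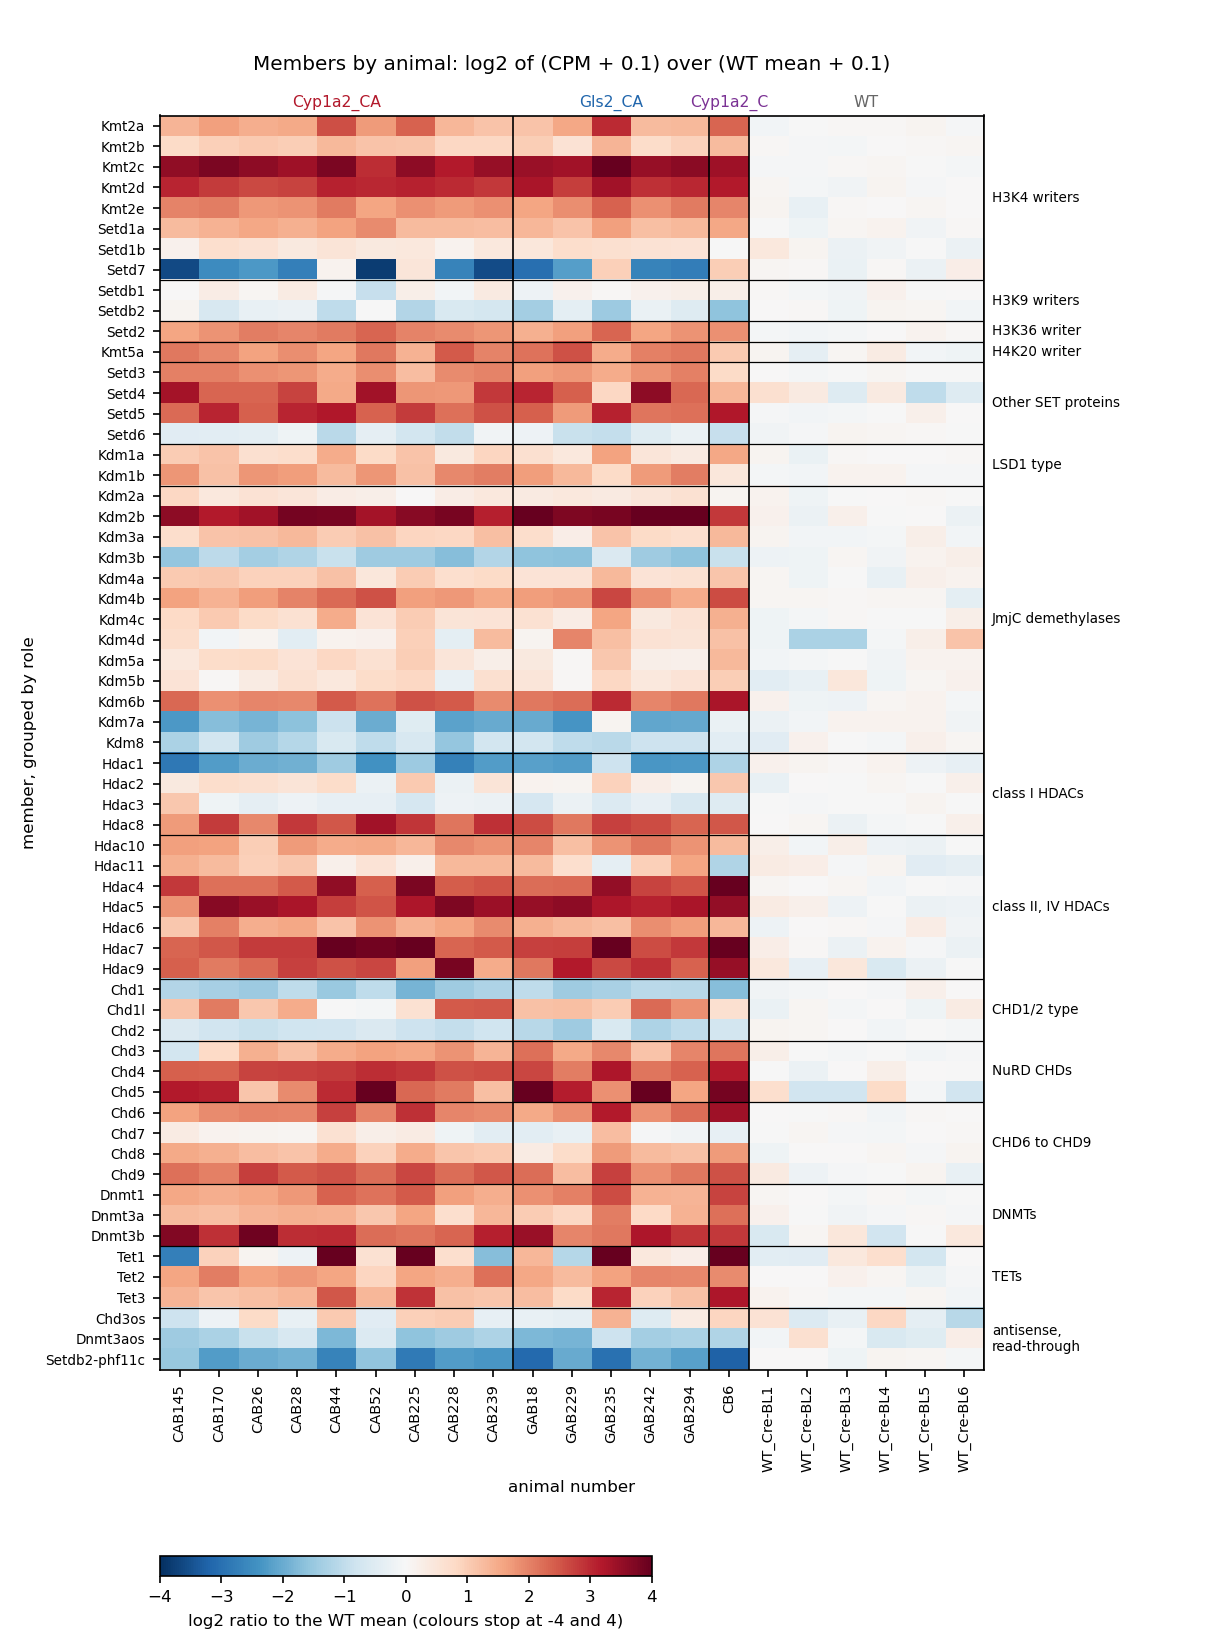
Each cell gives the log2 ratio of a member's CPM in an animal (columns, by group) to the mean of the 6 WT animals, after adding 0.1 CPM to both, with members in rows by role. The red rows of Kmt2c, Kmt2d, Kdm2b and the class II deacetylases run through both tumour groups, the blue rows of Chd1, Kdm3b and Hdac1 do too, and Tet1 is deep red in 4 tumour columns only.

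These fold changes are tied to transcript length, which the members do not share with the average gene. In Cyp1a2_CA against WT, 76.6% of the 778 genes with over 12000 exon bases rose (median log2 fold change 1.78), against 18.7% of the 2538 genes with up to 2000 bases (median -0.71). The 20 members with over 12000 bases had a median of 1.63. The 20 members with 4001 to 8000 bases had a median of 1.54, against 0.56 for the 5338 genes of that length. Of these members 17 rose, where 47.9% of all genes of that length did. A further fit took out, within each animal, a smooth (spline) trend of log2 CPM on exon length and GC content, called the offset below. With it, 30 of 58 members rose and 17 fell in Cyp1a2_CA (33.8% and 33.2% of all genes), and 26 of 56 rose and 19 fell in Gls2_CA (35% and 34.4% of all genes). The members' median was then 0.43 and 0.35, against 0.05 and 0.03 for all genes, and 18 and 16 members rose more than 2-fold. Depth also differed between tumours and WT. With tumour counts thinned to the WT total, 41 of 58 members rose and 9 fell in Cyp1a2_CA (median 1.34), and 41 of 57 rose and 10 fell in Gls2_CA (1.37). The part of RNA quality in the length trend was not tested, and results below are also given with the offset where the call differs. For the members from 4001 to 8000 bases, the median with the offset was 1.04 in Cyp1a2_CA, where 15 of 20 rose and 2 fell, and 1 in Gls2_CA, where 13 of 20 rose and 3 fell. All genes of that length had medians of 0.12 in Cyp1a2_CA (36.5% rose and 33.4% fell) and 0.07 in Gls2_CA (36.8% and 34.7%). For members above 12000 bases the median was -0.08 in Cyp1a2_CA, with 7 higher and 8 lower, and -0.16 in Gls2_CA, with 6 and 9. All genes above 12000 bases had medians of 0.35 in Cyp1a2_CA (40.6% rose and 30.5% fell) and 0.27 in Gls2_CA (41.4% and 31.3%).

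**Figure D2:**
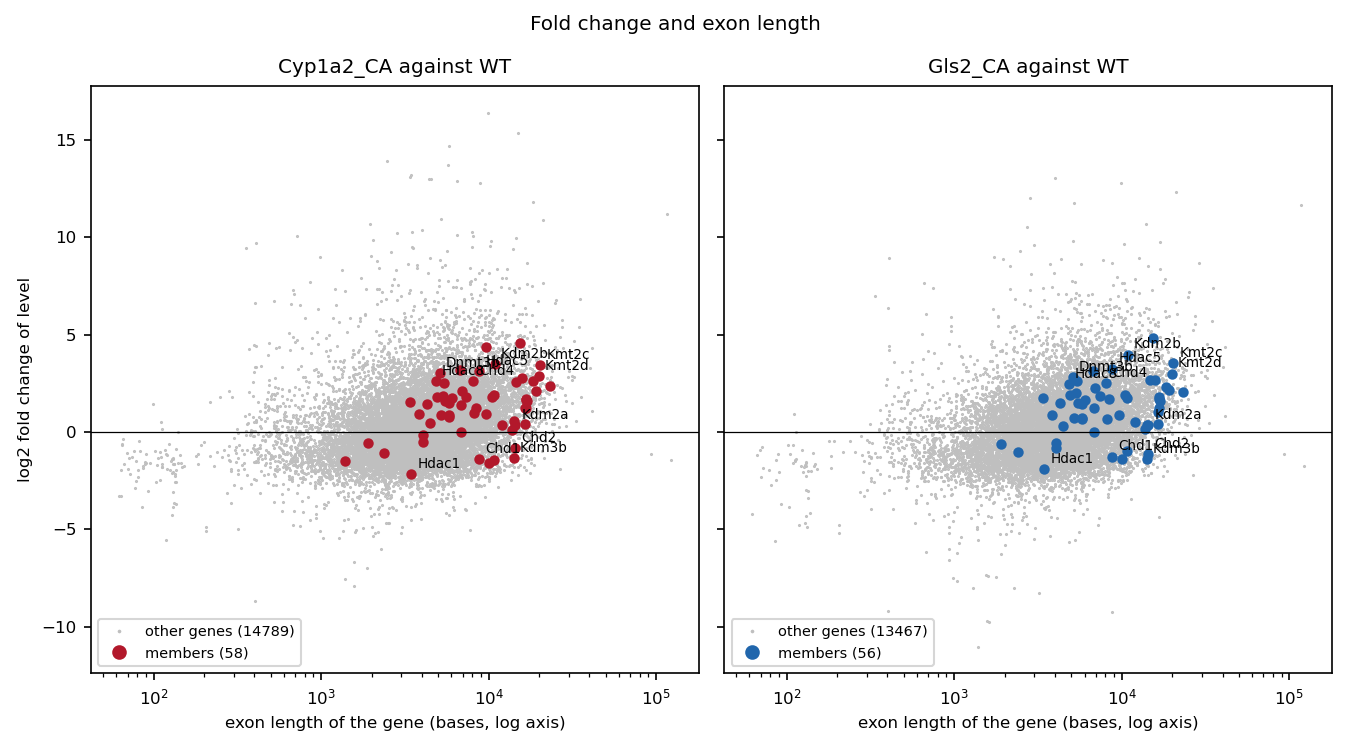
The log2 fold change of each gene against WT is plotted against its exon length on a log axis, with members in colour and all other genes with a known length in grey. The grey cloud climbs with length in both panels, and Kdm2b, Dnmt3b, Hdac5 and Hdac8 lie high for their length while Chd1, Chd2 and Kdm3b lie low for theirs.

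The bases before the starts of these genes are shown for members that moved in opposite directions. RefSeq starts on GRCm38.p6 were found for 44 of the 61 members (64 starts), and the 250 bases before each held a median of 19.5 CG pairs, against 6 over all 32851 starts in the table. The word GGGCGGG, bound by SP and KLF factors, occurred on either strand in 28 of the 64 windows (43.8%, against 23.4% of all windows), and CCAATCA or CCAATGA in 12 (18.8%, against 10.6%). Some windows of the same gene overlap, so 1 copy of a word can count more than once. By gene, 20 of the 44 members had GGGCGGG and 9 had CCAATCA or CCAATGA, and the share by gene over all genes was not computed. The TCF/LEF words CTTTGAT or CTTTGAA were found in 3 windows (4.69%, against 7.48%), the ETS word CCGGAAGT in 1 (1.56%, against 2.88%), and the E2F words TTTCCCGC or TTTGGCGC (1.3% of all windows) and the CRE word TGACGTCA (1.55%) in none. Kmt2c and Hdac5 rose in both tumour groups and Kdm7a fell, and each of the 3 windows holds GGGCGGG on the opposite strand, read here as CCCGCCC and given in capitals. The windows run 5′ to 3′ on the gene's strand, which is minus for all of them, at chr5:25498784-25499033 (Kmt2c, 48 CG pairs), chr11:102230173-102230422 (Hdac5, 12 CG pairs) and chr6:39206774-39207023 (Kdm7a, 56 CG pairs).
Kmt2c: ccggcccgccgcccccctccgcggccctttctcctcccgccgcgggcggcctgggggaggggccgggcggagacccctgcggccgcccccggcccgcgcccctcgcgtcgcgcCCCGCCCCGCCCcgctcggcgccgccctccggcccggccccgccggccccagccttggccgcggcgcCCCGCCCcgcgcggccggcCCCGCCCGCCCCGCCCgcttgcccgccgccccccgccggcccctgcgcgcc
Hdac5: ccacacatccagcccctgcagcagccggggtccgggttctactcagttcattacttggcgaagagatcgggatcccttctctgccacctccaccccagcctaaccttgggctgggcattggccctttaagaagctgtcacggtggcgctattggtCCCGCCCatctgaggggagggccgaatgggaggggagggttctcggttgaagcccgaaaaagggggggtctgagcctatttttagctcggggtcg
Kdm7a: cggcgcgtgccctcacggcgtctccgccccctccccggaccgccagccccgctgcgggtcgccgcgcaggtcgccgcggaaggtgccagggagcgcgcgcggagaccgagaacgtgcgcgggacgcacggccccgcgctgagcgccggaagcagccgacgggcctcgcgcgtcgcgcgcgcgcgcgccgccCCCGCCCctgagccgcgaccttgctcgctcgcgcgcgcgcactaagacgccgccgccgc
The word stands 6 times before Kmt2c and once each before Hdac5 and Kdm7a, in members that rose and in one that fell.

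Among the 8 H3K4 methyltransferase genes, the largest rises were those of Kmt2c and Kmt2d, which encode the catalytic subunits of the complexes that monomethylate H3K4 at enhancers. Kmt2c was at 1140, 1710 and 1990 CPM in Cyp1a2_CA (lowest, median and highest of 9), at 1600, 1500, 2320, 1650 and 1790 CPM in the 5 Gls2_CA animals, and at 140, 144 and 156 CPM in WT (lowest, median and highest of 6). Every tumour animal lay far above every WT animal. The log2 fold change was 3.42 ± 0.153 (SE) in Cyp1a2_CA, with an adjusted p of 5.5e-11, and 3.52 ± 0.176 in Gls2_CA, with an adjusted p of 2.3e-08. Kmt2d was at 1480, 1900 and 2010 CPM in Cyp1a2_CA, at 2290, 1610, 2440, 1820 and 1930 CPM in Gls2_CA, and at 219, 237 and 260 CPM in WT. Its log2 fold changes were 2.84 ± 0.127 (adjusted p = 5.4e-11) and 2.99 ± 0.171 (adjusted p = 4.9e-08). With the length and GC offset both genes still rose, Kmt2c by 1.71 and 1.76 and Kmt2d by 0.83 and 0.81 on the log2 scale. Kmt2c alone took 15.4 ± 2.42% of all member counts in Cyp1a2_CA and 16.2 ± 0.975% in Gls2_CA, against 5.34 ± 0.247% in WT (SD).

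The other H3K4 writers rose less, and several did so only without the offset. Kmt2e, an MLL-family protein whose SET domain lacks clear activity, rose by 1.78 in Cyp1a2_CA and 1.88 in Gls2_CA on the log2 scale, and by 0.81 and 0.88 with the offset. Kmt2a, the MLL1 gene that maintains Hox expression in development, had log2 fold changes of 1.69 and 1.79, which became 0.02 and 0 with the offset and were not called. Kmt2b (0.94 and 0.86) and Setd1b (0.34 and 0.5) were called lower with the offset, at -0.35 and -0.59 for Kmt2b and -1.14 and -1.15 for Setd1b. The higher call of Setd1b in Cyp1a2_CA was lost without the WT animal BL3 (0.29, adjusted p = 0.053). Setd1a, the catalytic subunit of a COMPASS complex for promoter H3K4 trimethylation, rose by 1.38 and 1.25, but 54% of its 50-base stretches also occur in the overlapping model Gm49388, so its counts are uncertain. Together, 7 of the 8 genes rose in each tumour group, where 38.3% (Cyp1a2_CA) and 39.2% (Gls2_CA) of all genes rose. With the offset 4 rose and 3 fell in each. Of all genes, 33.8% rose and 33.2% fell with the offset in Cyp1a2_CA, and 35% and 34.4% in Gls2_CA. The exception among the 8, Setd7, is described with the Ttn-high libraries.

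The remaining SET-domain genes moved both ways. Kmt5a (also known as PR-Set7), the enzyme of H4K20 monomethylation, which is needed for chromosome condensation and replication control, was at 101, 147 and 210 CPM in Cyp1a2_CA, at 173, 225, 108, 158 and 169 CPM in Gls2_CA and at 30.3, 38.5 and 48.6 CPM in WT. Both tumour groups lay wholly above WT, with log2 fold changes of 1.85 ± 0.161 (adjusted p = 5.1e-08) and 2.01 ± 0.171 (8.6e-07), and 1.49 and 1.7 with the offset. The 2 genes of the enzymes for H4K20 di- and trimethylation stand in the table under their older symbols Suv420h1 and Suv420h2, outside the symbol rule, and rose too, by 2.94 and 1.8 in Cyp1a2_CA and by 2.9 and 1.65 in Gls2_CA. Setd2, the H3K36 methyltransferase that travels with RNA polymerase II, rose by 1.88 and 1.71, and by 0.9 and 0.7 with the offset.

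Of the H3K9 group, Setdb1, which silences retroelements with KRAB zinc finger proteins, was at 30.6 ± 6.87 CPM in Cyp1a2_CA and 31.1 ± 3.66 CPM in Gls2_CA, against 29.2 ± 2.29 CPM in WT (SD, n = 9, 5 and 6), and was not called in either comparison. With the offset it was called lower, at -0.59 and -0.56. Setdb2 fell by 0.53 in Cyp1a2_CA (adjusted p = 0.012) and by 0.81 in Gls2_CA (0.0041), as did the read-through entry Setdb2-phf11c, by 2.17 and 2.46. The read-through entry starts from Setdb2, so reads may be split between both. Setd6 also fell, by 0.57 and 0.63, at a low level (8.99 ± 1.99 and 8.76 ± 2.01 CPM, against 12.7 ± 0.813 CPM in WT), and its Cyp1a2_CA call was lost with the offset (adjusted p = 0.079). Setd3, a histidine methyltransferase of actin, Setd4 and Setd5 rose in both groups, by 1.73, 2.51 and 2.62 in Cyp1a2_CA and by 1.65, 2.59 and 2.31 in Gls2_CA. With the offset these values were 1.32, 2.08 and 0.96 in Cyp1a2_CA and 1.28, 2.17 and 0.55 in Gls2_CA.

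**Figure D3:**
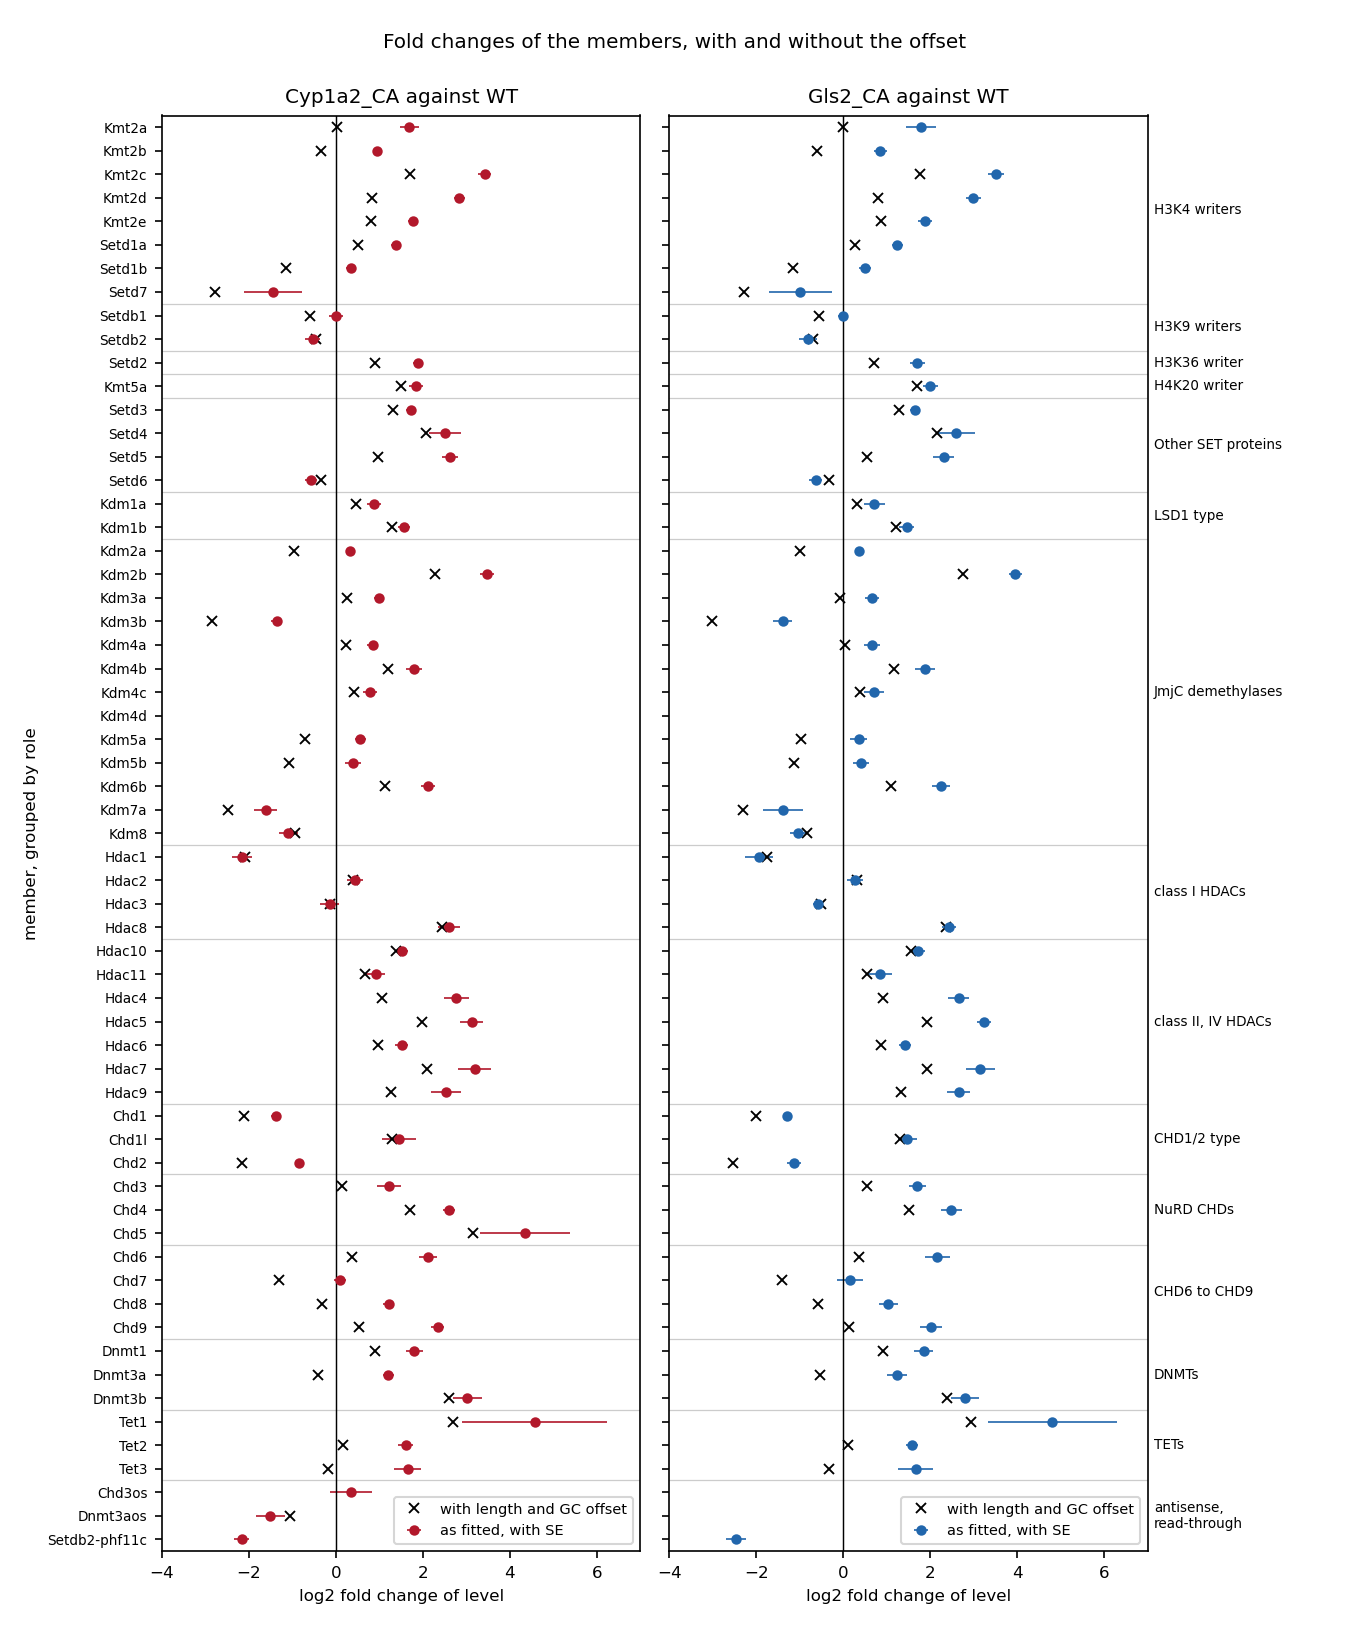
Filled circles give each member's log2 fold change against WT with its standard error, and crosses give the same with the length and GC offset, for Cyp1a2_CA (left) and Gls2_CA (right). The offset moves long genes such as Kmt2a, Kdm2a, Chd7 and Tet3 by over 1 unit to the left, and leaves shorter ones such as Hdac8, Hdac10, Kmt5a and Dnmt3b within 0.5 of their place.

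The JmjC demethylases moved in both directions. Both LSD1-type genes rose: Kdm1a, the LSD1 gene that removes methyl groups from H3K4 within the CoREST complex, by 0.88 and 0.72, and Kdm1b, its relative known for imprinting in oocytes, by 1.57 and 1.46, in Cyp1a2_CA and Gls2_CA. With the offset Kdm1a was not called in Gls2_CA (0.32, adjusted p = 0.19). Of the 12 JmjC genes tested, 8 rose and 3 fell in Cyp1a2_CA (38.3% and 32.7% of all genes), and 7 rose and 3 fell in Gls2_CA (39.2% and 34%). With the offset 4 rose and 6 fell in Cyp1a2_CA (33.8% and 33.2% of all genes) and 3 rose and 6 fell in Gls2_CA (35% and 34.4%). Kdm4d was too low to test against WT, at 0.215 ± 0.137 CPM in Cyp1a2_CA and 0.394 ± 0.272 CPM in Gls2_CA, against 0.143 ± 0.159 CPM in WT.

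Kdm2b showed the steepest rise of the JmjC genes. Its protein demethylates H3K36 and, through a CXXC domain, brings a variant Polycomb complex to unmethylated CpG islands. It was at 72, 99.1 and 118 CPM in Cyp1a2_CA, at 135, 112, 116, 177 and 148 CPM in Gls2_CA, and at 7.02, 8.33 and 9.53 CPM in WT, with no overlap. The log2 fold changes were 3.48 ± 0.158 (adjusted p = 6.5e-11) and 3.96 ± 0.15 (8.1e-09), and 2.28 and 2.75 with the offset. Its paralogue Kdm2a, of a longer transcript, differed far less, with log2 fold changes of 0.33 and 0.36 that were called higher, and of -0.97 and -1 with the offset that were called lower. The count ratio of Kdm2b to Kdm2a, which no scaling of libraries can change, was 0.682 to 1.33 in Cyp1a2_CA and 1.07 to 1.61 in Gls2_CA, against 0.0892 to 0.123 in WT. Part of the Kdm2b exons overlaps Rnf34 on the other strand, and 23.8% of its 50-base stretches occur in other genes' transcripts.

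Kdm3b and Kdm3a, which both remove methyl groups from H3K9, moved in opposite directions. Kdm3b was at 13, 16.5 and 22.7 CPM in Cyp1a2_CA, at 13.7, 13.6, 28, 15.8 and 13.7 CPM in Gls2_CA, and at 36.8, 41.3 and 49.9 CPM in WT. It fell by 1.36 ± 0.129 on the log2 scale in Cyp1a2_CA (adjusted p = 1.2e-07) and by 1.39 ± 0.227 in Gls2_CA (0.00016), and by 2.84 and 3.02 with the offset. Kdm3a rose by 0.98 in Cyp1a2_CA and 0.66 in Gls2_CA, which the offset took to 0.26 and -0.07, not called. The count ratio of Kdm3b to Kdm3a was 0.361 to 0.581 in Cyp1a2_CA and 0.43 to 0.66 in Gls2_CA, against 1.77 to 2.8 in WT, so Kdm3b had the higher counts of the pair in each WT liver and the lower counts in each tumour.

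Kdm7a, which removes methyl groups from H3K9 and H3K27, fell by 1.61 ± 0.265 in Cyp1a2_CA (adjusted p = 5.4e-05) and by 1.38 ± 0.454 in Gls2_CA (0.016), and by 2.04 and 2.24 without the Ttn-high libraries. Kdm8 fell by 1.1 and 1.04 at a low level, 1.25 ± 0.316 CPM in Cyp1a2_CA and 1.33 ± 0.145 CPM in Gls2_CA, against 2.56 ± 0.407 CPM in WT. Kdm6b, the H3K27 demethylase JMJD3 that counters Polycomb silencing and is induced in inflammation, rose to 283 ± 55 CPM in Cyp1a2_CA and 310 ± 101 CPM in Gls2_CA, against 61.9 ± 6.83 CPM in WT, a log2 fold change of 2.12 and 2.25 (adjusted p = 6.3e-09 and 1.8e-06). Kdm4b, which acts on H3K9, rose by 1.8 and 1.89. With the offset Kdm6b rose by 1.12 and 1.1, and Kdm4b by 1.19 and 1.17. Kdm4a, Kdm4c and Kdm5a had fold changes between 0.36 and 0.85 on the log2 scale, of which that of Kdm5a in Gls2_CA was not called (adjusted p = 0.11). With the offset Kdm5a was called lower in both groups, at -0.71 and -0.96, and Kdm4a in both groups and Kdm4c in Gls2_CA were not called. Without GAB235, Kdm4c and Kdm1a in Gls2_CA had values of 0.36 and 0.37, and Kdm4a of 0.45. Kdm5b, an H3K4 demethylase, had values of 0.39 (adjusted p = 0.062) and 0.41 (0.065). It was called higher in Cyp1a2_CA without CAB170 (0.44), CAB228 (0.47) or the WT animal BL3 (0.5), and in Gls2_CA without GAB229 (0.51) or BL3 (0.5), but lower in both with the offset, at -1.09 and -1.12.

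The class II and IV deacetylases rose as a whole class. Class IIa enzymes (Hdac4, Hdac5, Hdac7 and Hdac9) shuttle between nucleus and cytoplasm and repress MEF2 target genes, and Hdac11 is the only class IV member. All 7 genes, Hdac4, Hdac5, Hdac6, Hdac7, Hdac9, Hdac10 and Hdac11, rose in both comparisons, in which 38.3% and 39.2% of all genes rose. Their median log2 fold change was 2.54 in Cyp1a2_CA and 2.66 in Gls2_CA. With the offset the 7 rose in Cyp1a2_CA (median 1.27) and 6 rose in Gls2_CA (median 1.33), where Hdac11 was not called (adjusted p = 0.11). Of all genes, 33.8% and 35% rose with the offset.

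Hdac5 was at 89.8, 248 and 343 CPM in Cyp1a2_CA, at 292, 310, 243, 217 and 248 CPM in Gls2_CA, and at 21.9, 23.9 and 32.7 CPM in WT. The groups did not overlap, and the log2 fold changes were 3.12 ± 0.27 (adjusted p = 4.7e-08) and 3.25 ± 0.159 (2.1e-08). Hdac7, known for its role in vessel integrity and thymocytes, was at 43.9, 61.5 and 162 CPM in Cyp1a2_CA, at 58.5, 60.7, 169, 53.9 and 62.5 CPM in Gls2_CA, and at 7.36, 8.83 and 10.5 CPM in WT. Its log2 fold changes were 3.19 ± 0.377 (adjusted p = 1.7e-06) and 3.15 ± 0.333 (4.8e-06), and 2.74 and 2.63 without the Ttn-high libraries. Hdac4 rose by 2.77 and 2.66, and Hdac9 by 2.54 and 2.66. With the offset Hdac4 rose by 1.07 and 0.91, Hdac5 by 1.97 and 1.93, Hdac7 by 2.1 and 1.94, and Hdac9 by 1.27 and 1.33. Hdac6, the deacetylase of tubulin, rose by 1.51 and 1.42, and Hdac10, a polyamine deacetylase, by 1.51 and 1.72. The smallest rise was that of Hdac11, by 0.91 and 0.85, and 22.8% of its 50-base stretches lie in other models.

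The class I deacetylases, of which Hdac1, Hdac2 and Hdac3 are catalytic subunits of corepressor complexes such as NuRD, Sin3, CoREST and NCoR, did not move together. Hdac8, which deacetylates the cohesin subunit SMC3, was at 15.1, 32.5 and 48.4 CPM in Cyp1a2_CA, at 28.3, 20, 31.2, 28.7 and 23.5 CPM in Gls2_CA, and at 3.88, 4.58 and 5.3 CPM in WT. It rose by 2.6 ± 0.245 (adjusted p = 1.2e-07) and 2.44 ± 0.157 (9.9e-08) on the log2 scale, and by 2.44 and 2.36 with the offset. Hdac1 was at 1.69, 2.66 and 4.74 CPM in Cyp1a2_CA, at 2.8, 2.67, 7.2, 2.48 and 2.53 CPM in Gls2_CA, and at 10.2, 13.5 and 14.6 CPM in WT, and fell by 2.16 ± 0.226 (4e-07) and 1.93 ± 0.325 (0.0002). This value is uncertain, since 58.7% of the 50-base stretches of Hdac1 also occur in other models, chiefly the pseudogene Gm10093 (56.4%).

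Hdac2 had log2 fold changes of 0.44 ± 0.187 in Cyp1a2_CA (adjusted p = 0.046) and 0.28 ± 0.185 in Gls2_CA (0.19), and without the Ttn-high libraries it was not called in Cyp1a2_CA either (0.28, adjusted p = 0.14). With the offset Hdac2 was not called in Cyp1a2_CA (0.39, adjusted p = 0.056). The Cyp1a2_CA call was also lost on leaving out any of 11 single animals (adjusted p up to 0.099). Hdac3, the deacetylase of the NCoR complex and a regulator of the circadian lipid cycle of liver, fell in Gls2_CA by 0.57 ± 0.115 (adjusted p = 0.00078), with 10.6, 14.5, 11.6, 13.7 and 10.9 CPM in the 5 animals against 16.5, 17 and 18.3 CPM in WT. In Cyp1a2_CA it was not called (-0.14, adjusted p = 0.57): animal CAB145 stood at 36.1 CPM, above every WT liver, and the other 8, at 10.6 to 15.3 CPM, lay below every WT liver. Without CAB145 it was called lower there too, at -0.38 (adjusted p = 0.0012). The count ratio of Hdac8 to Hdac2 was 0.582 to 3.01 in Cyp1a2_CA and 0.857 to 1.33 in Gls2_CA, against 0.206 to 0.296 in WT.

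The CHD remodellers moved in both directions, also within subfamilies. The pair Chd1 and Chd2, which bind transcribed genes and, for Chd1, H3K4me3, fell in both groups. Chd1 was at 23.1, 33.4 and 41.9 CPM in Cyp1a2_CA, at 41.4, 31.3, 34.1, 39.8 and 39.6 CPM in Gls2_CA, and at 77.1, 83.7 and 97.8 CPM in WT, without overlap. It fell by 1.39 ± 0.114 (adjusted p = 2.5e-08) and 1.28 ± 0.107 (7.2e-07), and by 2.11 and 2 with the offset. Chd2 fell by 0.84 ± 0.0815 (1.7e-07) and 1.13 ± 0.157 (4.4e-05), and by 2.16 and 2.52 with the offset. Chd1l (ALC1), a remodeller recruited by poly(ADP-ribose) at DNA breaks and amplified in human liver cancer, rose by 1.45 ± 0.384 (0.0033) and 1.48 ± 0.219 (7.3e-05).

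The NuRD ATPases rose. Chd4 was at 938, 1210 and 1430 CPM in Cyp1a2_CA, at 1170, 769, 1740, 818 and 953 CPM in Gls2_CA, and at 156, 185 and 215 CPM in WT. Its log2 fold changes were 2.6 ± 0.135 (adjusted p = 2e-10) and 2.49 ± 0.238 (2.1e-06), and 1.7 and 1.51 with the offset. Chd3, the other broadly expressed NuRD ATPase, rose less, by 1.22 ± 0.271 and 1.71 ± 0.192, and with the offset it was not called in Cyp1a2_CA (0.15, adjusted p = 0.62). The lowest Cyp1a2_CA animal had 113 CPM of Chd3 and lay below the WT range of 177 to 222 CPM. The count ratio of Chd4 to Chd3 was 1.67 to 8.55 in Cyp1a2_CA and 1.3 to 2.39 in Gls2_CA, against 0.816 to 1.16 in WT. Per 1000 exon bases, Chd4 had the highest mean of the members in all groups, at 147 ± 20.7 CPM per kb in Cyp1a2_CA, 136 ± 49 in Gls2_CA and 23 ± 2.32 in WT. In WT Chd3 lay within the spread of Chd4, at 22.4 ± 1.92 CPM per kb. The next were Kmt2d and Kmt2c in both tumour groups and Kmt2d, after Chd3, in WT.

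Chd5, a NuRD ATPase of brain and testis, was at 0.272 to 8.28 CPM in Cyp1a2_CA and 6.14, 1.4, 0.504, 3.06 and 0.407 CPM in Gls2_CA, against 0 to 0.193 CPM in WT. It rose in Cyp1a2_CA, with a log2 fold change of 4.35 ± 1.04 (adjusted p = 0.0015), and 3.35 without CAB52, the highest animal. In Gls2_CA it passed too few counts to be tested. Of the other subfamily, Chd6, Chd8 and Chd9 rose, by 2.11, 1.21 and 2.34 in Cyp1a2_CA and by 2.17, 1.04 and 2.03 in Gls2_CA. With the offset Chd6 rose by only 0.37 in each, and Chd9 by 0.53 in Cyp1a2_CA, while Chd9 was not called in Gls2_CA (0.14). Chd8 with the offset was not called in Cyp1a2_CA (-0.32, adjusted p = 0.068) and was called lower in Gls2_CA (-0.58, adjusted p = 0.0045). Chd7, mutated in human CHARGE syndrome, was not called (0.1 and 0.16), with the offset it was called lower (-1.32 and -1.41), and without GAB235 it was called lower in Gls2_CA (-0.33, adjusted p = 0.0059). The count ratio of Chd1 to Chd4, 2 genes of similar exon length, was 0.0172 to 0.0388 in Cyp1a2_CA and 0.0196 to 0.0487 in Gls2_CA, against 0.382 to 0.524 in WT.

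**Figure D4:**
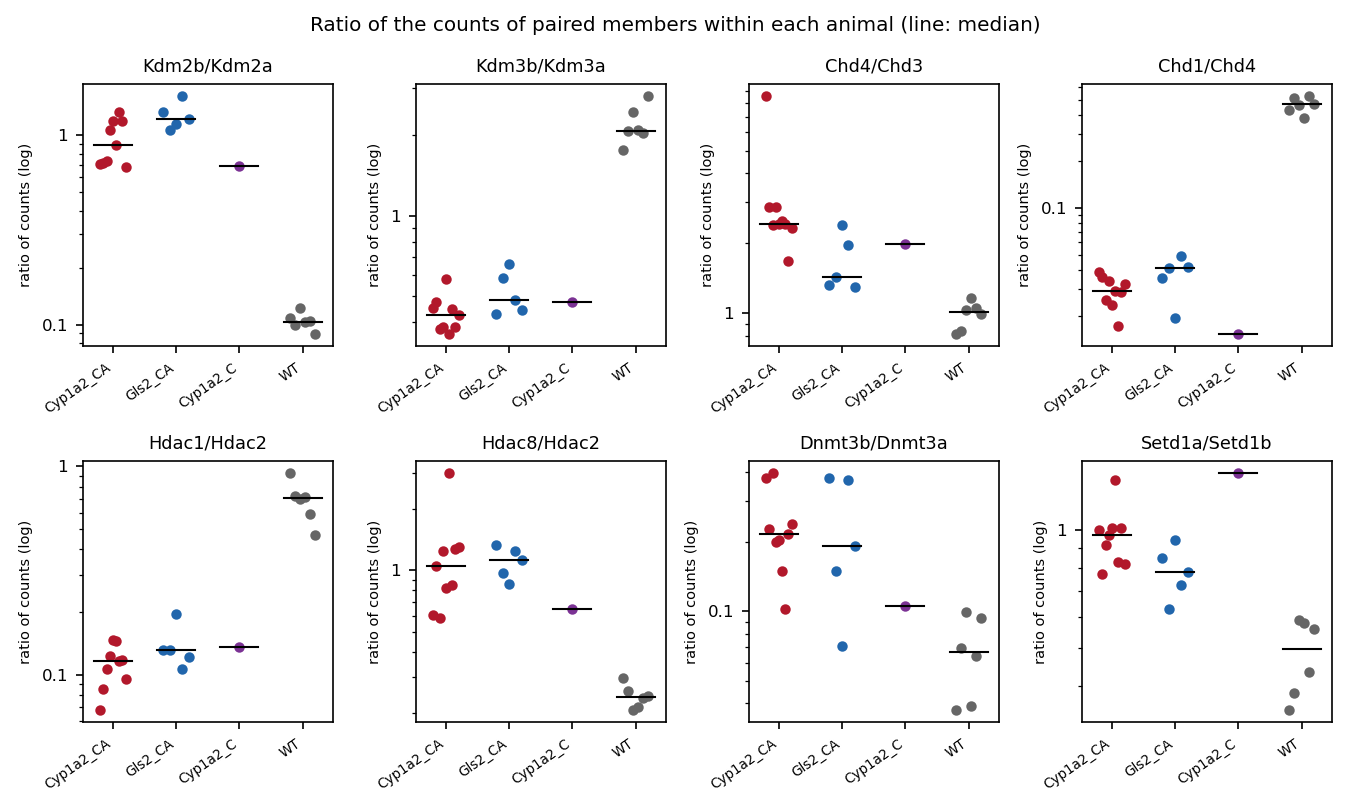
Each point is the ratio of the deposited counts of 2 members in 1 animal, on a log axis, and the line is the median of the group. Tumour and WT animals do not overlap in any panel but that of Dnmt3b to Dnmt3a, and the single Cyp1a2_C animal lies outside the WT range in every panel. The 8 pairs were picked from 16 after their values were seen, and the counts of Hdac1 and Setd1a are uncertain.

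Of the 16 pairs computed, the animals of both tumour groups together did not overlap WT in 8, namely the panels other than Dnmt3b to Dnmt3a and, besides them, Kmt2b to Kmt2a. How often pairs of other genes separate in this way was not computed, so the count shows nothing particular to the members. The ratios of Hdac1 to Hdac2 and of Setd1a to Setd1b rest on the uncertain counts of Hdac1 and Setd1a. They overlapped WT in the other 8: Dnmt3b to Dnmt3a, Kmt2c to Kmt2d, Kdm1b to Kdm1a, Kdm5b to Kdm5a, Hdac5 to Hdac4, Hdac7 to Hdac9, Chd1 to Chd2 and Tet3 to Tet2.

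Of the DNA methyltransferases, the de novo enzyme Dnmt3b rose most. It was at 9.83, 17.5 and 33.3 CPM in Cyp1a2_CA, at 24.6, 8.69, 9.62, 20.9 and 16.4 CPM in Gls2_CA, and at 1.22, 2.2 and 2.96 CPM in WT, without overlap. The log2 fold changes were 3.02 ± 0.33 (adjusted p = 6.6e-07) and 2.8 ± 0.329 (1.2e-05), and 2.6 and 2.38 with the offset. Dnmt1, which copies methylation after replication, rose by 1.8 ± 0.19 and 1.85 ± 0.228, and by 0.9 and 0.91 with the offset. Proliferation genes stood higher beside it: 18 such genes summed to 136 to 1090 CPM in Cyp1a2_CA and 128 to 485 CPM in Gls2_CA, against 63.1 to 73.7 CPM in WT, and their part in the Dnmt1 level was not tested. Dnmt3a, the other de novo enzyme, rose by 1.2 and 1.24 and was called lower with the offset (-0.41 and -0.53). The count ratio of Dnmt3b to Dnmt3a was 0.102 to 0.397 in Cyp1a2_CA and 0.0708 to 0.377 in Gls2_CA, against 0.0373 to 0.0998 in WT. The antisense entry Dnmt3aos fell in Cyp1a2_CA by 1.51 (adjusted p = 0.00082), at 0.232 ± 0.102 against 0.633 ± 0.242 CPM in WT. Chd3os was at 0.572 ± 0.334 CPM against 0.426 ± 0.271 CPM in WT and was not called (adjusted p = 0.53). Without a known strand setting, reads of an antisense entry cannot be told apart from those of its partner.

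The 3 TET genes were called higher in both comparisons, as were 38.3% and 39.2% of all genes. None of the 3 was called higher with the offset. Tet2, whose loss drives clonal haematopoiesis, rose by 1.6 ± 0.167 and 1.59 ± 0.14 (adjusted p = 4e-07 and 1.1e-06), and had offset values of 0.16 and 0.11. Tet3 rose by 1.65 ± 0.308 and 1.67 ± 0.407, with offset values of -0.19 and -0.33 and of 1.15 and 0.91 without the Ttn-high libraries. The call of Tet1, the TET enzyme of embryonic stem and germ cells, rested on the Ttn-high libraries.

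Several members stood higher in the 4 Ttn-high libraries than in all other tumour libraries. Within these 4, Tet1, Setd7 and Tet3 were highest in CB6-L, which had the lowest Ttn (8670 CPM). Kdm7a and Kmt2a were highest in GAB235-S, which had the highest Ttn (30200 CPM). Tet1 was at 52.4 CPM in CAB44-L and 68.2 CPM in CAB225-L (Cyp1a2_CA), 76.3 CPM in GAB235-S (Gls2_CA) and 88.1 CPM in CB6-L (Cyp1a2_C), the 4 libraries with Ttn above 1000 CPM. In the 16 other tumour libraries it was at 0 to 1.54 CPM, and in WT at 0.306 to 0.962 CPM. With all animals its log2 fold change was 4.57 ± 1.67 in Cyp1a2_CA (adjusted p = 0.023) and 4.81 ± 1.48 in Gls2_CA (0.011). Without those libraries it was 0 (adjusted p = 1) and 0.41 (0.46).

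Setd7, which monomethylates H3K4 and many non-histone proteins, showed the reverse case. It was at 20.8, 26.9, 36.8 and 39.3 CPM in the same 4 libraries, at 1.25 to 3.94 CPM in the other tumour libraries, and at 15.5 to 22.5 CPM in WT. It was not called with all animals (-1.45, adjusted p = 0.061 in Cyp1a2_CA, and -0.98, adjusted p = 0.24 in Gls2_CA). Without the 4 libraries it fell by 3.07 ± 0.253 (6.3e-08) and by 2.79 ± 0.189 (3.6e-08), the largest fall of any member in those fits. Leaving out CAB44 or CAB225 alone gave -1.85 (adjusted p = 0.018) and -2.06 (0.0051) in Cyp1a2_CA. With the offset and all animals it was also called lower, at -2.77 and -2.27. Kdm7a was at 28.5, 37.8, 56.2 and 45.3 CPM in the 4 libraries, at 9.88 to 16.7 CPM in the other tumour libraries, and at 43.8 to 58.1 CPM in WT. Tet3 was at 318, 422, 471 and 551 CPM in these libraries, against 92.6 to 148 CPM in the other tumours and 51.3 to 61.3 CPM in WT, and Kmt2a at 416, 364, 553 and 364 CPM, against 148 to 219 and 63.5 to 74 CPM. In these 4 libraries the 5 genes described lay above every other tumour library, and Tet1, Tet3 and Kmt2a also lay above every WT library. How many other members, or what share of all genes, did so was not computed, so this shows nothing particular to these genes. Setd7 was above the WT range in 3 of the 4, and Kdm7a was below it in 2 of the 4 and within it in the other 2. Of the muscle markers other than Ttn, Myh6, Myh7 and Ckm had at most 0.648 CPM in any animal, and Actn2 at most 1.55 CPM. The part of the rise of Ttn in these values was not tested.

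**Figure D5:**
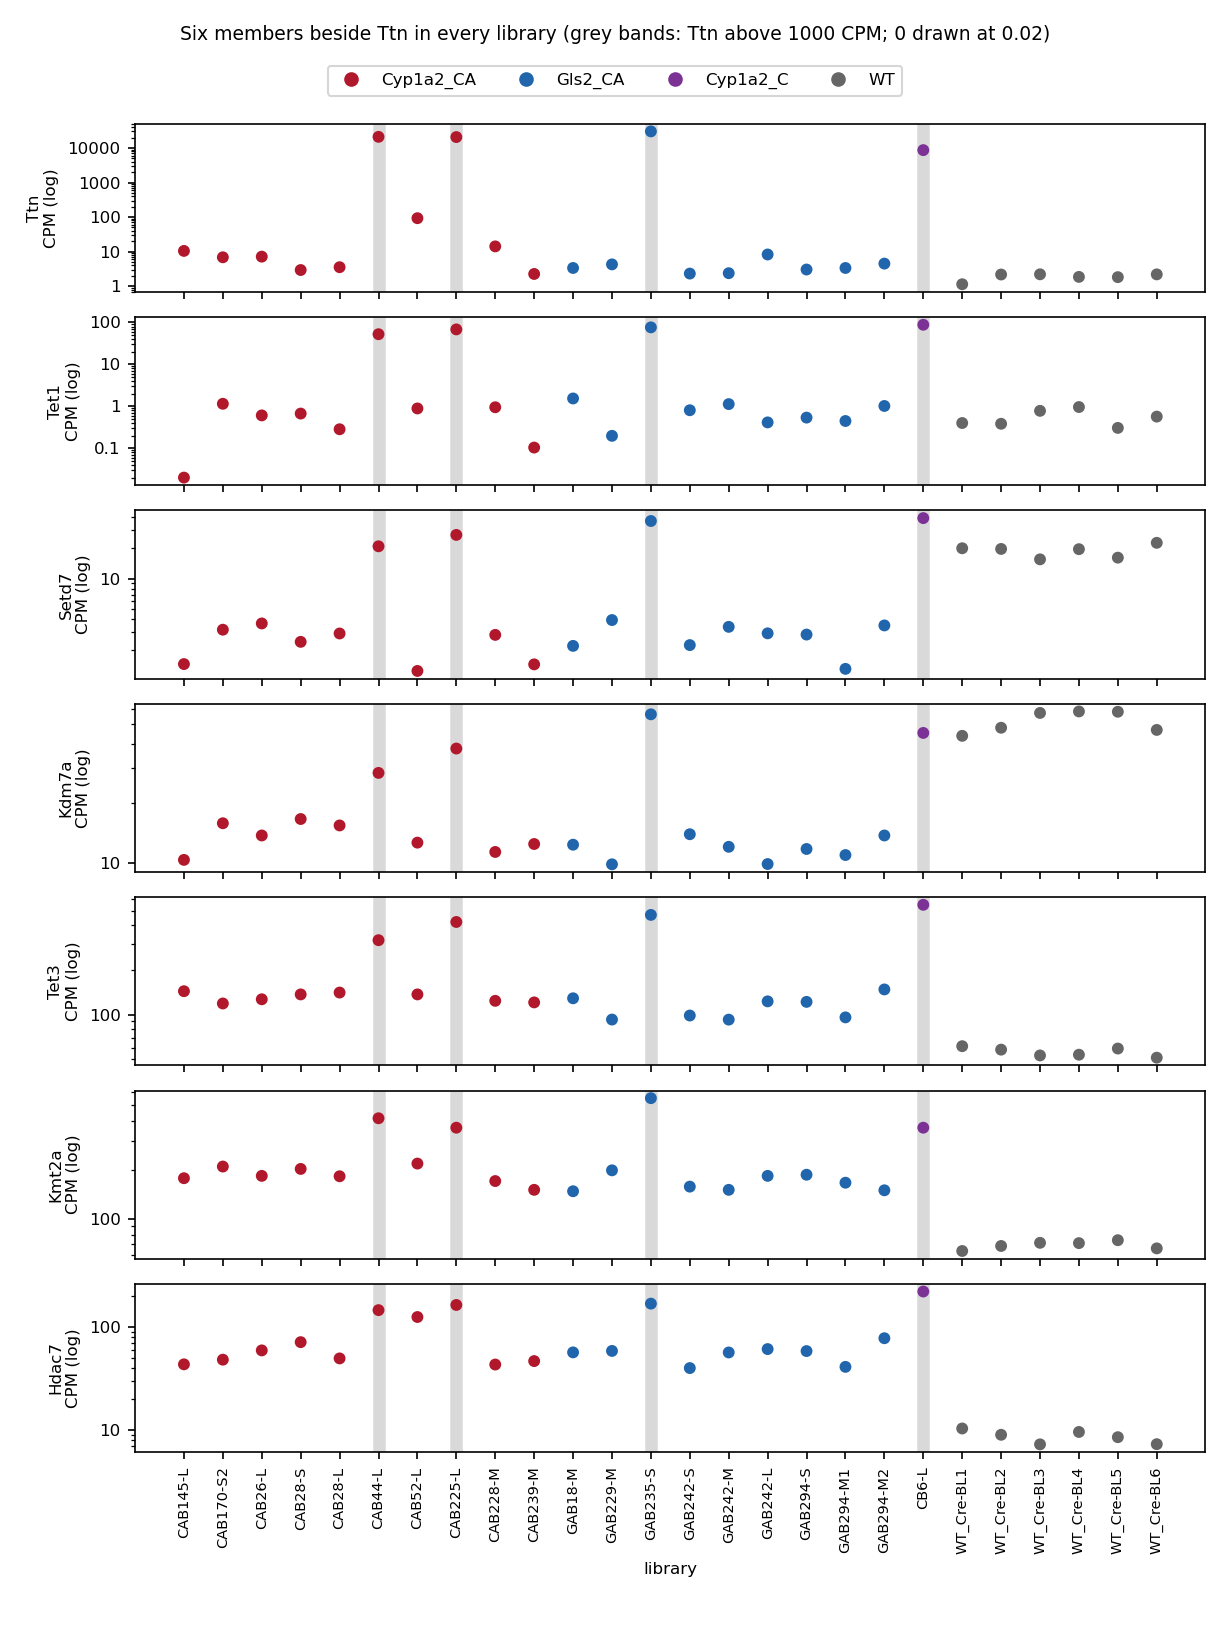
Each panel gives the CPM of a gene on a log axis in each of the 26 libraries, coloured by group, with grey bands at the 4 libraries with Ttn above 1000 CPM (values of 0 are drawn at 0.02). In the banded libraries Tet1 lies above 50 CPM, Setd7 lies within or above the WT range and Kdm7a within or below it, while Hdac7 is also high in CAB52-L (126 CPM) outside the bands.

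Members also varied between tumours of a group and within single animals. Among members with a mean of at least 1 CPM, the highest animal was a median of 2.05 times the lowest in Cyp1a2_CA (58 members) and 2.09 times in Gls2_CA (58), against 1.31 times in WT (56). The ratio exceeded 10 for Chd5, Setd7 and Tet1 in both tumour groups. Ratios of this kind grow with the number of values, and the groups held 9, 5 and 6 animals. The Ttn-high animals were kept in them, and the same ratio over all genes was not computed. Those within an animal are not comparable with these. Between libraries that share an animal number, none of them Ttn-high, the median ratio was 1.11 for the 2 libraries of CAB28, 1.37 for the 3 of GAB242 and 1.34 for the 3 of GAB294. The widest member within an animal was Setd4 in CAB28 (29.6 and 69.1 CPM), Chd3 in GAB242 (216 to 550 CPM) and Hdac9 in GAB294 (5.04 to 14.3 CPM).

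Tumours started from the 2 zones did not differ detectably in these genes. In Cyp1a2_CA against Gls2_CA, edgeR called none of the 60 members tested and none of 17129 genes (0% in either direction), with 554 genes and 2 members at an unadjusted p under 0.05. DESeq2 called 7 genes higher and 13 lower and limma-voom 0 higher and 10 lower, none of them a member. The median log2 fold change of the members was -0.01. The smallest p was that of Kdm2b, at 96.8 ± 18.2 CPM in Cyp1a2_CA and 138 ± 26.5 CPM in Gls2_CA (SD, n = 9 and 5). Its log2 fold change was -0.49 ± 0.156 (SE, p = 0.00676 by edgeR, adjusted p = 1). Kdm3a followed at 0.33 ± 0.153 (p = 0.0494 by edgeR, adjusted p = 1), with 40.3 ± 5.53 CPM in Cyp1a2_CA and 32.3 ± 6.81 CPM in Gls2_CA, and then Chd2 at 0.29 ± 0.14 and Kdm4d at -0.85 ± 0.504, both with an adjusted p of 1. The standard error of a member in this comparison reached 1.74 for Tet1, so differences well above that value could also go uncalled there. That of Kmt2c was 0.168 at a log2 fold change of -0.1.

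The Cyp1a2_C tumour, the only one without the Arid2 allele, gave 1 library and no test. Members took 1.84% of its counts, above the range of every other library. Kmt2c was at 1530 CPM, Kmt2d at 2150 CPM, Kdm2b at 58.9 CPM, Chd4 at 1680 CPM and Hdac5 at 298 CPM in this animal, far above WT, and Chd1 was at 25.8 CPM and Hdac1 at 5.45 CPM, below it. It was among the libraries with high Ttn and had little hepatocyte RNA (7 markers summing to 505 CPM), so its genotype, its tissue and its library cannot be told apart.

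Partner genes of these enzymes, taken from fixed lists of other subunits and enzymes, moved in both directions. Their counts stand beside 38.3% higher and 32.7% lower over all genes in Cyp1a2_CA, 39.2% and 34% in Gls2_CA, and with the offset 33.8% and 33.2% in Cyp1a2_CA and 35% and 34.4% in Gls2_CA. Of 9 NuRD subunits without Chd or Hdac genes, 7 rose and 1 fell in Cyp1a2_CA (median log2 fold change 0.92), and 6 rose and 2 fell in Gls2_CA (0.91). With the offset 5 rose and 1 fell in Cyp1a2_CA and 5 rose and 2 fell in Gls2_CA. Mta1, the NuRD subunit that holds the deacetylases, rose to 447 ± 52.6 CPM in Cyp1a2_CA and 454 ± 107 CPM in Gls2_CA, against 30.7 ± 3.25 CPM in WT, a log2 fold change of 3.79 ± 0.125 (adjusted p = 1e-11) and 3.81 ± 0.191 (2.3e-08). Of the deacetylase corepressor subunits, 17 of 24 rose and 6 fell in Cyp1a2_CA, and 14 of 23 rose and 6 fell in Gls2_CA. With the offset 14 rose and 7 fell in Cyp1a2_CA and 13 rose and 8 fell in Gls2_CA. Ncor1, the nuclear receptor corepressor that activates Hdac3, rose by 4.5 ± 0.175 and 4.41 ± 0.16, and by 3.29 and 3.18 with the offset.

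Of the 14 shared subunits of the MLL and COMPASS complexes, 9 rose and 4 fell in Cyp1a2_CA and 8 rose and 5 fell in Gls2_CA (medians 0.64 and 0.62), and with the offset 6 rose and 5 fell in Cyp1a2_CA and 5 rose and 5 fell in Gls2_CA. Polycomb subunits without a methyltransferase rose in 15 and fell in 6 of 25 in Cyp1a2_CA, and rose in 15 and fell in 7 in Gls2_CA. With the offset 11 rose and 9 fell in Cyp1a2_CA, and 11 rose and 7 fell in Gls2_CA. Other histone methyltransferases rose in 12 of 16 and fell in 1 in each comparison, and with the offset rose in 9 of 14 and fell in 2 in each. Histone acetyltransferases rose in 8 of 11 and fell in 1 in Cyp1a2_CA, and rose in 7 and fell in 2 in Gls2_CA. With the offset only 3 rose in each comparison, 3 fell in Cyp1a2_CA and 2 fell in Gls2_CA, with medians of 0.05 and 0. Sirtuins, the NAD-dependent deacetylases, rose in 4 of 7 and fell in 1 in both comparisons, with and without the offset. Other JmjC and related demethylases rose in 5 of 8 and fell in 3 in both, and with the offset rose in 3 of 6 and fell in 2. Partners and readers of DNA methylation rose in 10 of 16 and fell in 3 in Cyp1a2_CA and rose in 11 and fell in 3 in Gls2_CA, and with the offset 9 rose and 4 fell in each. ISWI and INO80 remodellers rose in 8 of 14 and fell in 4 in both. With the offset 7 rose and 6 fell in Cyp1a2_CA, and 6 rose and 6 fell in Gls2_CA.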

How the data were processed

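Reads per gene symbol were deposited by the authors as whole-number counts in 1 table of 35976 rows for 26 libraries, with no normalization. Per the labels' protocols, RNA came from frozen tissue, and libraries were made from 100 ng of RNA with a Nugen Ovation kit. The build was mm10, per the submitters' processing notes, while aligner, counting program and strand setting are not given here in any label. Members and lists were chosen with earlier results of these data known.

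Repeat libraries of an animal number were added together, which left 9 animals in Cyp1a2_CA, 5 in Gls2_CA and 6 in WT. Each p-value thus rests on variation among animal numbers. Each pair of groups was fitted with edgeR 4.0.16 (filterByExpr, TMM, robust quasi-likelihood test, Benjamini-Hochberg over all genes tested, threshold 0.05) in R 4.3.3. Alternatives were RLE and upper-quartile factors, DESeq2 1.42.0, limma-voom (limma 3.58.1) with quality weights, other filters, other uses of repeated libraries, 1 fit of all groups, an offset for exon length and GC content (GENCODE M21 by symbol, which matched 59 of 61 members), tumour counts thinned to the WT total, and leaving out Ttn-high libraries or each animal. The scripts were tested on simulated counts.

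The genes named are, per role, the 2 members with the smallest p in each comparison with WT, members called against the majority, the 4 smallest p between tumour groups, members with over 10-fold range, and the 2 smallest p of each list. Further members are named to complete a family. Ratios of paired members were chosen after their values were seen. Shared 50-base stretches were counted in GENCODE M21 transcripts. Total counts per library set the precision of levels.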

Additional observations from a re-analysis of the deposited data

Results flagged for a closer look

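Of 183 sets of animals (61 members in 3 groups), 27 had an animal whose gap to its nearest neighbour was large against the range of its group by Dixon's criterion. The sets share the same animals and the rate over all genes was not computed, so the number cannot be set against chance. Most of these were the Gls2_CA animal GAB235, whose single library has high Ttn, as the highest of 5. In GAB235, with the next highest animal beside it, Chd7 was at 182 CPM (next 74.4), Hdac1 was at 7.2 CPM (next 2.8), Hdac2 was at 36.5 CPM (next 23.2), Hdac4 was at 285 CPM (next 162) and Hdac7 was at 169 CPM (next 62.5). Also in GAB235, Kdm1a was at 42.3 CPM (next 21.9), Kdm3b was at 28 CPM (next 15.8), Kdm4a was at 59.6 CPM (next 36.6), Kdm4b was at 132 CPM (next 74.3) and Kdm4c was at 45.1 CPM (next 23.3). In the same animal, Kdm5a was at 67 CPM (next 41.7), Kdm6b was at 487 CPM (next 290), Kdm7a was at 55.8 CPM (next 12.7), Kmt2a was at 550 CPM (next 204), Setd7 was at 36.5 CPM (next 4.05), Tet1 was at 75.8 CPM (next 1.58) and Tet3 was at 468 CPM (next 132). 

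In Cyp1a2_CA the animals that stood apart were CAB52 for Chd5 (highest at 8.28 CPM, next 1.45), CAB145 for Hdac3 (highest at 36.1 CPM, next 15.3), CAB228 for Hdac9 (highest at 27.5 CPM, next 13.3), CAB44 for Kdm4c (highest at 42.5 CPM, next 31.5) and CAB52 for Setdb1 (lowest at 15.3 CPM, next 26.9). In WT they were WT_Cre-BL1 for Chd3 (highest at 222 CPM, next 187), WT_Cre-BL5 for Hdac3 (highest at 18.3 CPM, next 17.1), WT_Cre-BL2 for Kdm1a (lowest at 11.5 CPM, next 14), WT_Cre-BL6 for Kdm4b (lowest at 15.8 CPM, next 21.5) and WT_Cre-BL2 for Kmt2e (lowest at 95.1 CPM, next 116). Of the 27, 18 fell on animals with Ttn-high libraries.

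The single Cyp1a2_C library, which entered no comparison, held the highest level of all 26 libraries for 15 members. The share of all genes that were highest in this library was not computed, so the count shows nothing particular to the members. By library, Chd6 was at 410 CPM (next 341), Chd8 was at 240 CPM (next 235), Dnmt1 was at 122 CPM (next 110), Dnmt3a was at 157 CPM (next 137), Hdac2 was at 41.7 CPM (next 40.2), Hdac4 was at 472 CPM (next 348), Hdac7 was at 223 CPM (next 170) and Kdm3a was at 50.1 CPM (next 47.1). In the same library, Kdm5a was at 81.5 CPM (next 67.4), Kdm5b was at 77.1 CPM (next 67.9), Kdm6b was at 618 CPM (next 490), Setd5 was at 689 CPM (next 655), Setd7 was at 39.3 CPM (next 36.8), Tet1 was at 88.1 CPM (next 76.3) and Tet3 was at 551 CPM (next 471). Its Ttn level was 8670 CPM. These are values of 1 library, and no difference was tested.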

How the results depend on the processing

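No paired analysis was possible because no animal number occurs in more than 1 group and nothing in the labels pairs animals across groups. In Cyp1a2_CA against WT, the median log2 fold change of the members (1.41) was 1.19 with upper-quartile factors, 1.3 with DESeq2, 1.25 with limma-voom, 1.31 with the stricter filter, 1.14 without the Ttn-high libraries and 0.43 under the offset, which also raised the number of members called lower to 17. In Gls2_CA against WT, the median (1.46) was 1.24 with upper-quartile factors, 1.12 with limma-voom, 1.12 without the Ttn-high library and 0.35 with the offset, where 26 members were called higher and 19 lower. Leaving out 1 animal at a time gave medians of 1.33 to 1.44 in Cyp1a2_CA, of 1.12 to 1.53 in Gls2_CA, lowest without GAB235, and of -0.05 to 0.21 in Cyp1a2_CA against Gls2_CA, highest without GAB235. For these results the cause was not tested. Upper-quartile factors moved the median of all genes by -0.22 and -0.23 and turned the split of all genes to 5592 higher and 6260 lower in Cyp1a2_CA, and to 5118 and 5838 in Gls2_CA.

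With the offset, these members changed sign in Cyp1a2_CA: Chd7 (-1.32), Chd8 (-0.32), Dnmt3a (-0.41), Kdm2a (-0.97), Kdm5a (-0.71), Kdm5b (-1.09), Kmt2b (-0.35), Setd1b (-1.14) and Tet3 (-0.19). In Gls2_CA they were Chd7 (-1.41), Chd8 (-0.58), Dnmt3a (-0.53), Kdm2a (-1), Kdm3a (-0.07), Kdm5a (-0.96), Kdm5b (-1.12), Kmt2b (-0.59), Setd1b (-1.15), Setdb1 (-0.56) and Tet3 (-0.33). Chd7 in Gls2_CA was -0.33 without GAB235, the only animal with a Ttn-high library there, and reached 0.3 when another animal was left out. Under the alternatives other than the offset that gave a value for the gene, 40 of the 44 higher and the 10 lower calls of Cyp1a2_CA, and 35 of 41 and the 10 lower of Gls2_CA, kept their side of the threshold. With the offset as well, 30 and 8 did in Cyp1a2_CA and 26 and 9 in Gls2_CA. Among the called members, no value came from the stricter filter for Kdm8 and Tet1 (both comparisons), Chd5 and Dnmt3aos, from thinned counts for Chd5 and Dnmt3aos, from DESeq2 for Kdm7a, Tet1 and Tet3 in Gls2_CA, or from the offset for Setdb2-phf11c. Depth limits Kdm4d, Chd5, Chd3os and Dnmt3aos, which had few counts in WT.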
